A study of Macaca mulatta with 12 samples.

Results

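The miR-181 family was followed in 12 small RNA sequencing profiles from 8 tissues of wild-type, untreated rhesus macaques (Macaca mulatta) of 36 months. Its members were taken by name from the study's list of pre-miRNAs, the hairpins from which mature miRNAs are cut. Of 831 hairpins, 6 have names that begin with mml-mir-181, and they give 10 of the 1219 different mature sequences, because the hairpins of a pair can share an arm. There was 1 profile each of occipital lobe (a part of the brain cortex), spinal cord, liver and lung, and a pair of profiles each of kidney, muscle and the small and large intestine. The tissues came from 2 animals, and the labels do not say which animal gave which profile, so that the spread within a tissue may be technical. In the tests, occipital lobe and spinal cord formed 1 group, neural tissue, the only way to give either of them a second profile.

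Each profile held between 22118095 and 25579064 valid reads, and levels were scaled to 10000000 valid reads (RPTM), a scale on which 1 read is worth about 0.4. The tissue labels were checked with lists of marker miRNAs. The neural list (miR-9 and miR-124) summed to 265452 RPTM in spinal cord and 395069 RPTM in the occipital lobe, with at most 995 RPTM elsewhere. The skeletal muscle list (miR-1, miR-133, miR-206, miR-208b and miR-499) summed to 137191 and 158238 RPTM in the muscle profiles, against 944 RPTM or less elsewhere. Each profile is a mixture of cell types, and a lower level can mean fewer cells of a type or less RNA in each cell, which cannot be told apart here.

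A miRNA gene is transcribed as a hairpin, and Drosha and Dicer cut a short duplex from it. In most cases 1 strand of the duplex, the 5′ arm (-5p) or the 3′ arm (-3p), is loaded into an Argonaute protein and represses mRNAs that pair with its seed, the bases 2 to 8. The other strand is degraded and is seen with fewer reads. The miR-181 family is conserved in vertebrates, is abundant in brain and lymphoid tissue, and is known for setting the sensitivity of T cell receptor signalling and for a role in muscle differentiation. The family is encoded in 3 pairs of neighbouring genes. In the RefSeq annotation of the assembly T2T-MMU8v2.0, which is not the assembly of the study, MIR181B-1 and MIR181A-1 lie next to each other, MIR181B-2 and MIR181A-2 lie within the span of NR6A1, and MIR181C and MIR181D lie within the span of NANOS3.

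The 4 mature 5′ arms are shown because they carry nearly all reads of the family and share their first 8 bases. Capitals mark the seed, which no other mature sequence read from the list has.
miR-181a-5p: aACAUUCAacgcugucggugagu
miR-181b-5p: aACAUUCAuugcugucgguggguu
miR-181c-5p: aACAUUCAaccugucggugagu
miR-181d-5p: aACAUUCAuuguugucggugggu

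miR-181a-5p is cut from mml-mir-181a-1 and mml-mir-181a-2 and miR-181b-5p from mml-mir-181b-1 and mml-mir-181b-2, so that reads of these mature sequences cannot be assigned to 1 gene of the pair. Counted from 1 at the 5′ end, miR-181b-5p differs from miR-181a-5p by A9U, C10U and A21G. miR-181d-5p differs from miR-181b-5p only by C12U.

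The hairpins of the miR-181a genes are shown because the 3′ arm is the part by which their reads can be told apart. Capitals mark the mature arms, the 5′ arm first.
mml-mir-181a-1: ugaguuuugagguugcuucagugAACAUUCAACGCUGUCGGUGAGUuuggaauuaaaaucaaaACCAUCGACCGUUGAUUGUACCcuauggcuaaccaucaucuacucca
mml-mir-181a-2: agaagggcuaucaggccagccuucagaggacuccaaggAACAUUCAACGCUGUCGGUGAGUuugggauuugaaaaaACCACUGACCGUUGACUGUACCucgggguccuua

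The 3′ arms that had more than a few reads follow, with the seed in capitals. The 3′ arms of mml-mir-181a-2 and mml-mir-181d are not named in the list used here and were taken as the most abundant read on that side of the hairpin.
miR-181a-1-3p: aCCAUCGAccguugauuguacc
miR-181a-2-3p: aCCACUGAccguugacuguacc
miR-181c-3p, as listed: cCAUCGACcguugaguggacc
miR-181c-3p, most abundant read: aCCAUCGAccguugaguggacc

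The 3′ arms of the miR-181a genes differ by U5C, C6U and U16C, of which the first pair lies in the seed. The most abundant read of miR-181c-3p, with 12398 reads or 81.7% of the reads on that side of the hairpin, began 1 base before the listed sequence. With this start its seed is that of miR-181a-1-3p, whereas the listed sequence has a seed of its own. The reads of the miR-181b 3′ arms also began before the listed start, by 3 bases in the most abundant read of each gene, which puts them outside the window of 2 bases used for counting. Counted with reads anywhere on that side, mml-mir-181b-1 had 220 reads and mml-mir-181b-2 had 58 in all 12 profiles. mml-mir-181d had 12 reads of its 3′ arm.

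miR-181a-5p was the most abundant member in all 12 profiles, with 82.0% to 94.8% of the reads of the family. It reached 1043950 RPTM in spinal cord, where it was the most abundant miRNA, and 906543 RPTM in occipital lobe, where it was the second after let-7f-5p. Lung followed with 233706 RPTM. The kidney profiles had 90341 and 45460 RPTM, the muscle profiles 61454 and 71614 RPTM, and liver 41167 RPTM. The intestines were at the low end, with 29991 and 31332 RPTM in small intestine and 25635 and 41615 RPTM in large intestine. The muscle profiles lay between the kidney profiles, and liver and both small intestine profiles lay between the large intestine profiles, so that the order among these neighbours is not larger than the spread. Outside the neural tissues miR-181a-5p ranked between 6 and 15, and miR-10b-5p, miR-143-3p or miR-192-5p ranked first. All members together took 20.4% of the miRNA reads of spinal cord and 18.1% of those of occipital lobe, against 5.32% in lung and 0.520% to 1.42% in the other 9 profiles.

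miR-181b-5p had 103475 RPTM in spinal cord and 66209 RPTM in occipital lobe. In the other 10 profiles it lay between 1572 RPTM in large intestine 1 and 6259 RPTM in lung. miR-181c-5p and miR-181d-5p were highest in occipital lobe, not in spinal cord. miR-181c-5p had 37493 RPTM there and 20283 RPTM in spinal cord, followed by lung with 4029 RPTM, and was low in the kidney profiles with 677 and 250 RPTM, between which liver lay with 486 RPTM. miR-181d-5p, the least abundant of the 5′ arms, had 4177 and 3213 RPTM in occipital lobe and spinal cord, 373 RPTM in lung, 77.8 and 52.9 RPTM in kidney and 60.9 RPTM in liver. For these 3 members, as for miR-181a-5p, both neural profiles were above all 10 other profiles. The plot of the 5′ arm levels shows the order a, b, c, d in every profile.

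**Figure D1:**
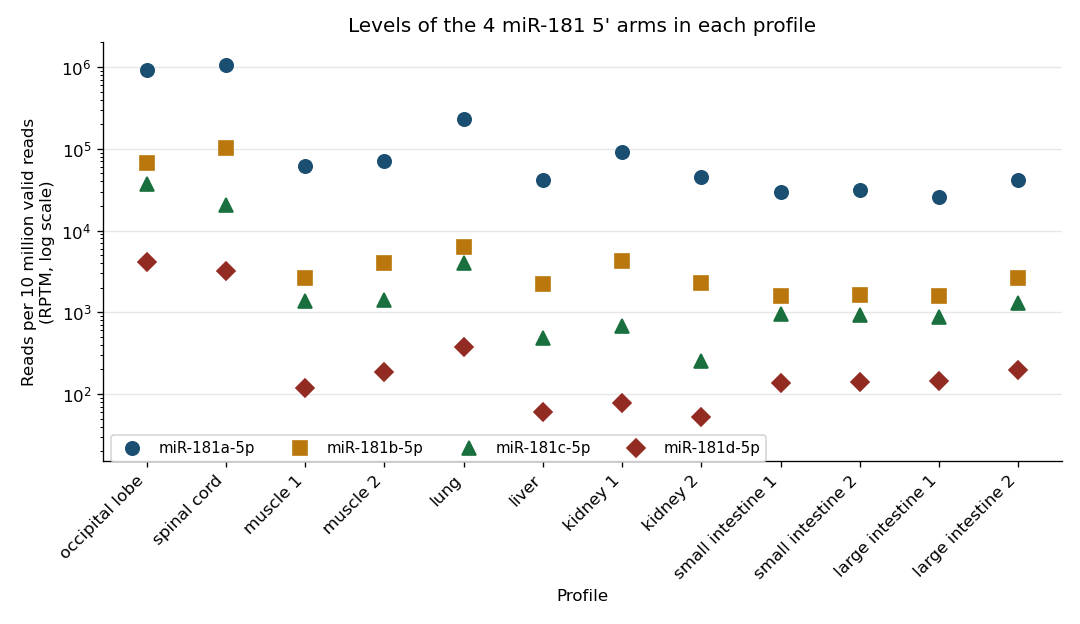
Levels of the 4 miR-181 5′ arms in RPTM (log scale) in each of the 12 profiles; each point is 1 profile. Occipital lobe and spinal cord are highest for every member, from 906543 and 1043950 RPTM for miR-181a-5p down to 4177 and 3213 RPTM for miR-181d-5p, and kidney 2 is lowest for miR-181c-5p (250 RPTM) and miR-181d-5p (52.9 RPTM), with liver between the kidney profiles for both.

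Which members differ between a tissue and the rest was tested with edgeR's quasi-likelihood test, 1 tissue against the mean of the other 6 groups, over 371 mature miRNAs, those whose RPTM values averaged 5 or more with a standard deviation of 1 or more. Of the 10 members, 7 passed this filter. The 3′ arms of mml-mir-181b-1, mml-mir-181b-2 and mml-mir-181d did not, with means of 0.424 to 0.536 RPTM. Adjusted p-values are from this test with the Benjamini-Hochberg method over all 371 miRNAs, and a call is an adjusted p under 0.05.

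In neural tissue, 7 of the 7 tested members were higher, where 40.7% of all tested miRNAs were called higher. miR-181c-3p had the largest difference, 3.66 ± 0.29 (SE) on the log2 scale (edgeR, adjusted p = 3.78e-06). miR-181b-5p followed with 3.50 ± 0.27 (edgeR, adjusted p = 3.11e-06). miR-181c-5p and miR-181d-5p were higher by 3.41 ± 0.30 and 3.40 ± 0.26. miR-181a-5p and miR-181a-1-3p were higher by 2.62 ± 0.28 and 2.65 ± 0.25, and miR-181a-2-3p by 1.21 ± 0.27 (edgeR, adjusted p = 0.00259). miR-181a-2-3p was also high in muscle, with levels that overlapped those of the neural profiles. These values depend on the scale. The TMM factors, which bring the bulk of the miRNAs to a common level, were 2.28 in occipital lobe and 2.48 in spinal cord and 0.632 to 1.36 elsewhere. With them the median over all 371 miRNAs was 0.58 in this comparison, and 151 miRNAs were called higher and 102 lower. With the valid reads alone the median was 1.97, 232 were called higher and 46 lower, and the members had differences of 2.64 to 5.06. On either scale each of the 7 members was above the median.

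In muscle, miR-181a-2-3p was the only member called, and it was higher by 3.08 ± 0.25 on the log2 scale (edgeR, adjusted p = 7.05e-06), where 25.9% of all tested miRNAs were called higher. It had 5722 and 9546 RPTM in the muscle profiles, 8299 RPTM in spinal cord and 4405 RPTM in occipital lobe. In the other 8 profiles it lay between 456 RPTM in large intestine 1 and 1330 RPTM in kidney 1, so that muscle did not overlap with them. The other 6 members had log2 differences of -0.43 to -0.16 in muscle with adjusted p-values of 0.298 to 0.775 (edgeR). Among them were miR-181a-5p, the 5′ arm of the same hairpin, with -0.35 ± 0.34, and miR-181a-1-3p with -0.37 ± 0.29. The call of miR-181a-2-3p held under all 22 alternatives, with differences of 2.69 to 3.38.

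**Figure D2:**
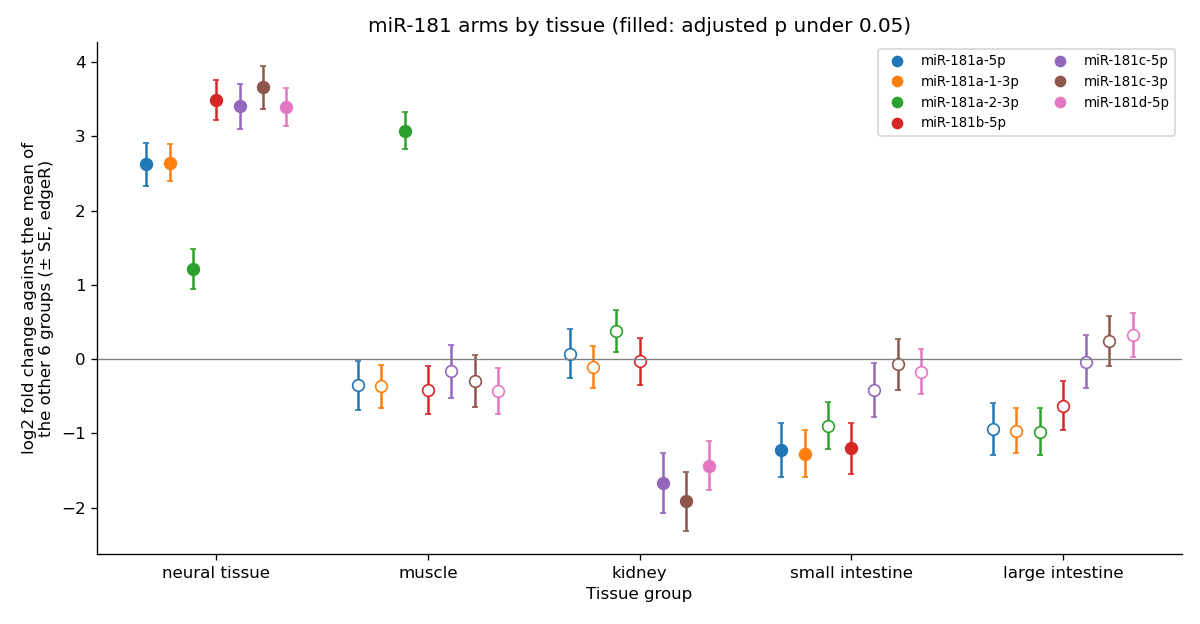
Log2 differences (edgeR, ± SE) of the 7 tested miR-181 arms between each of 5 tissue groups and the mean of the other 6 groups; filled points have an adjusted p under 0.05. All 7 points are filled in neural tissue, 1 in muscle (miR-181a-2-3p), 3 in kidney (the miR-181c arms and miR-181d-5p), 3 in small intestine and 0 in large intestine.

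The 3′ arms were then set against the shared miR-181a-5p. For every 100 reads of miR-181a-5p, miR-181a-1-3p had 0.403 to 0.640 reads in all 12 profiles, with a median of 0.474. The ratio of the mml-mir-181a-1 arm to the 5′ arm thus moved by less than a factor of 2 over tissues in which miR-181a-5p itself moved from 25635 to 1043950 RPTM. miR-181a-2-3p had 9.31 and 13.3 reads per 100 reads of miR-181a-5p in muscle, and 0.354 to 2.26 in the other 10 profiles. Its lowest ratios were those of lung with 0.354, occipital lobe with 0.486 and spinal cord with 0.795.

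As a share of both 3′ arms, miR-181a-1-3p made up 4.15% (95% Wilson interval 3.84% to 4.49%) in muscle 1 and 4.11% (3.86% to 4.37%) in muscle 2. It made up 55.5% (54.0% to 57.0%) in lung, 51.7% (51.0% to 52.4%) in occipital lobe and 37.9% (37.4% to 38.5%) in spinal cord. Liver had 32.6% and the kidney profiles had 23.0% and 16.7%. The small intestine profiles had 21.3% and 20.7% and the large intestine profiles 25.7% and 24.6%. The intervals cover counting error only. In the 4 tissues with 2 profiles the values within a tissue were near, least so in kidney. Of these 4 tissues only muscle stood far apart from the others. Both small intestine values lay between the kidney values, and the large intestine values were a little higher. The upper part of the range came from tissues with 1 profile each.

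The nearness of same-tissue profiles was tested against all 51975 sets of 4 pairs that the 12 profiles allow. The log2 ratio of mml-mir-181a-1 to mml-mir-181a-2 3′ arm reads differed by 0.18 on average within the 4 same-tissue pairs and by 1.80 between other pairs (exact one-sided permutation test, p = 0.000462, adjusted p = 0.00349 over 11 measures). The ratio of both miR-181a 3′ arms to the 5′ arm differed by 0.41 within tissues and 1.36 between others (exact one-sided permutation test, adjusted p = 0.0376). For this ratio the adjusted p was 0.0928 when only reads identical to the mature sequences were counted, and 0.0267 to 0.128 when 1 profile was left out at a time. Neural tissue against the other 10 profiles gave an adjusted p of 0.333 for both ratios (exact two-sided permutation test), and 2 profiles against 10 cannot give an unadjusted p below 0.0303.

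**Figure D3:**
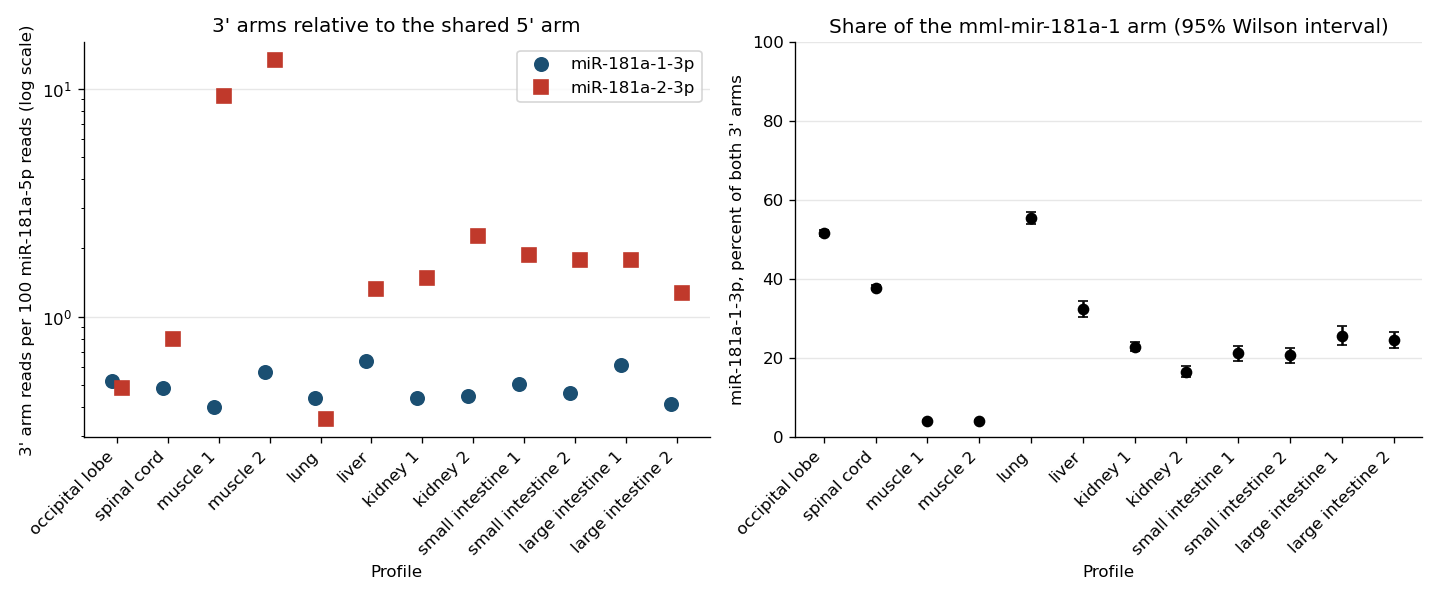
Left, reads of miR-181a-1-3p and miR-181a-2-3p per 100 reads of miR-181a-5p (log scale) in each profile; right, miR-181a-1-3p as a percent of both 3′ arms with 95% Wilson intervals. miR-181a-1-3p stays between 0.403 and 0.640, whereas miR-181a-2-3p reaches 9.31 and 13.3 in muscle, where the share of miR-181a-1-3p is 4.15% and 4.11%.

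The miR-181b 3′ arms were too rare for the same comparison. mml-mir-181b-1 had 116 and mml-mir-181b-2 had 17 of these reads in spinal cord, and 62 and 5 in occipital lobe. In muscle 1 the reads were 5 and 0, and in muscle 2 they were 8 and 17. No other profile had more than 13 reads of either arm. The log2 ratio of the arms differed by 2.06 within tissues and 2.27 between others (exact one-sided permutation test, adjusted p = 0.479), and a difference between tissues was not detectable at this depth.

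In kidney, both miR-181c arms and miR-181d-5p, which come from the third gene pair, were lower. miR-181c-3p had 117 and 46 exact reads in the kidney profiles and at least 114 in the others, a difference of -1.91 ± 0.40 on the log2 scale (edgeR, adjusted p = 0.00799). miR-181c-5p was lower by -1.67 ± 0.40 (edgeR, adjusted p = 0.0166) and miR-181d-5p by -1.43 ± 0.34 (edgeR, adjusted p = 0.0139). Of all tested miRNAs, 4.04% were called lower in kidney and 16.4% higher. The 4 arms of miR-181a and miR-181b had differences of -0.11 to 0.38 with adjusted p-values of 0.426 to 0.995 (edgeR). The kidney profiles were themselves apart, with 677 and 250 RPTM of miR-181c-5p, and with kidney 2 left out none of the 3 calls remained (adjusted p = 0.105 to 0.176). With kidney 1 left out, the call of miR-181d-5p was lost. With the valid reads alone, the same 3 members were called lower in kidney, where 31 miRNAs were higher and 42 lower in place of 61 and 15.

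In small intestine, miR-181a-1-3p was lower by -1.27 ± 0.31, miR-181a-5p by -1.22 ± 0.36 and miR-181b-5p by -1.20 ± 0.34 (edgeR, adjusted p = 0.0214, 0.0389 and 0.0360). Of all tested miRNAs, 9.97% were called lower. These calls were weak. None of them remained when either small intestine profile was left out. In the 8 numbered profiles alone, without the neural tissues, lung and liver, none of the 3 was called, and miR-181a-2-3p was lower in small intestine by -1.40 against the mean of muscle, kidney and large intestine. miR-181a-2-3p had a difference of -0.89 ± 0.31 over all profiles (edgeR, adjusted p = 0.0676). The miR-181c arms and miR-181d-5p had differences of -0.42 to -0.07 with adjusted p-values of 0.456 to 0.934. With the valid reads alone, 28 miRNAs were called higher and 91 lower in small intestine in place of 45 and 37.

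In large intestine, edgeR called 0 of the 7 members, where 9.16% of all tested miRNAs were called higher and 5.39% lower. miR-181a-1-3p, miR-181a-2-3p and miR-181a-5p had differences of -0.96 ± 0.30, -0.98 ± 0.31 and -0.94 ± 0.35 and an unadjusted p under 0.05, with adjusted p-values of 0.0587, 0.0621 and 0.101 (edgeR). DESeq2 called these 3 lower, and the valid reads alone called them and miR-181b-5p lower. On that scale 21 miRNAs were higher and 81 lower in place of 34 and 20. Liver and lung had no second profile and were not tested.

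The proportions among the 5′ arms were compared within each profile, where the depth of the library cancels. For every 100 reads of miR-181a-5p there were 9.91 reads of miR-181b-5p in spinal cord and 7.30 in occipital lobe, and 2.68 (lung) to 6.25 (large intestine 2) in the other 10 profiles. The neural profiles did not overlap with the others, which gave p = 0.0303, the smallest this test can give, and an adjusted p of 0.333 over 11 measures (exact two-sided permutation test). The log2 ratio differed by 0.13 within the same-tissue pairs and by 0.52 between others (exact one-sided permutation test, adjusted p = 0.00614). With reads identical to the mature sequences only, this adjusted p was 0.292.

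miR-181c-5p had 0.749 and 0.551 reads per 100 reads of miR-181a-5p in kidney, the lowest values, 1.18 in liver and 1.72 in lung. The muscle profiles had 2.26 and 1.99 and spinal cord had 1.94. The intestines had 2.96 to 3.39 and occipital lobe the highest value, 4.14. Occipital lobe and spinal cord thus stood apart from each other in this proportion. The log2 ratio differed by 0.21 within the same-tissue pairs and by 1.08 between others (exact one-sided permutation test, adjusted p = 0.00349).

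miR-181d-5p had 1.82 and 2.33 reads per 100 reads of miR-181b-5p in kidney, 2.78 in liver, 3.10 in spinal cord and 6.31 in occipital lobe. The 4 intestinal profiles had the highest values, 7.66 to 9.20. The log2 ratio differed by 0.17 within the same-tissue pairs and by 0.99 between others (exact one-sided permutation test, adjusted p = 0.00388), and with identical reads only the adjusted p was 0.0928. The proportion of miR-181d-5p to miR-181c-5p, its neighbour in the genome, ranged less, from 8.65 to 21.1 reads per 100.

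**Figure D4:**
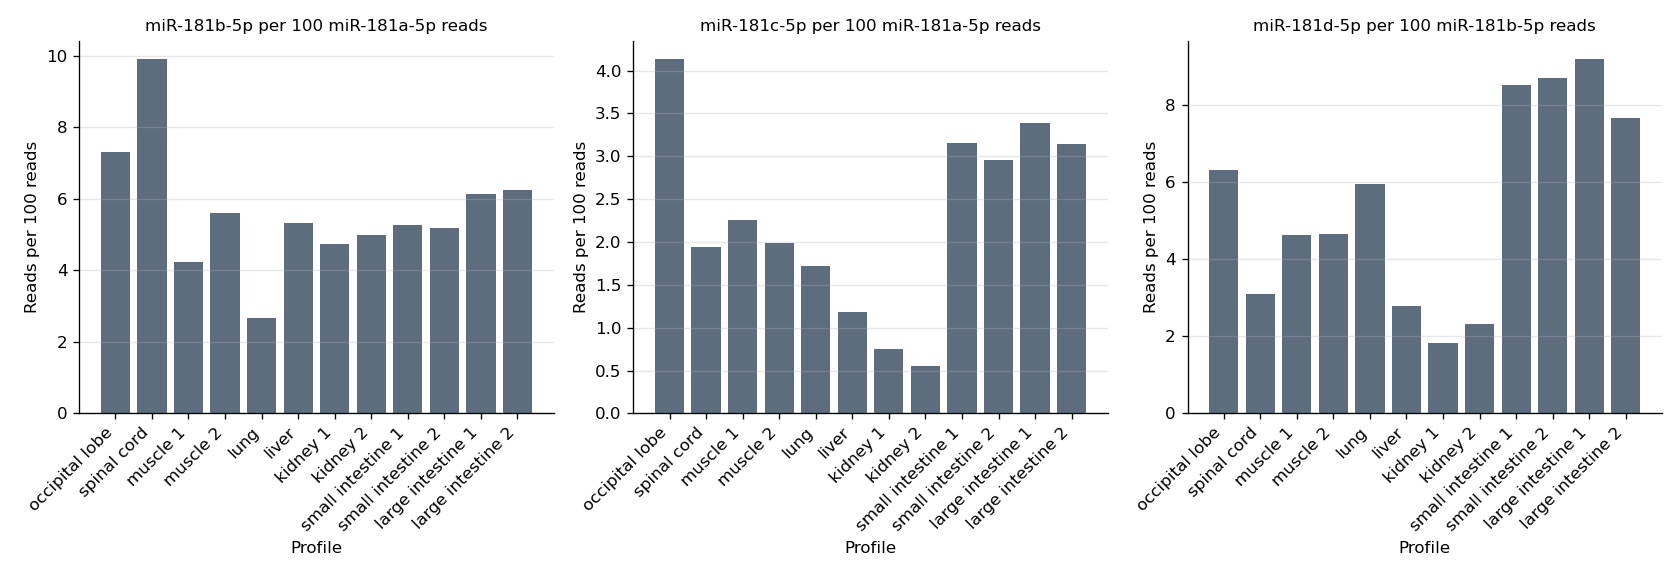
Reads of miR-181b-5p and miR-181c-5p per 100 reads of miR-181a-5p, and of miR-181d-5p per 100 reads of miR-181b-5p; each bar is 1 profile. The miR-181b-5p bars are highest in spinal cord (9.91) and occipital lobe (7.30), and the bars of the other panels are lowest in kidney.

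The levels of the members were also correlated over the profiles, as a description in which the points share their library and most of the range is set by the neural profiles. On the scale log2(RPTM + 1) over 12 profiles, miR-181a-5p had Pearson's r = 0.993 with miR-181a-1-3p, 0.978 with miR-181b-5p and 0.642 with miR-181a-2-3p. miR-181c-5p had r = 0.985 with miR-181d-5p and 0.986 with miR-181c-3p. Over the 10 profiles outside the neural tissues, miR-181a-5p kept r = 0.961 with miR-181b-5p and 0.968 with miR-181a-1-3p, and miR-181c-5p kept 0.942 with miR-181d-5p. Between these groups r was lower there, with 0.582 for miR-181a-5p and miR-181c-5p and 0.394 for miR-181b-5p and miR-181d-5p. miR-181a-2-3p had r = 0.369 with miR-181a-5p in these 10 profiles.

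Among the 364 selected miRNAs outside the family, those with the pattern most like that of miR-181a-5p over the 12 profiles were miR-125a-3p (r = 0.974), miR-598-3p (0.953), miR-128a-5p (0.951), miR-99b-3p (0.946) and let-7a-5p (0.942). For miR-181c-5p they were let-7i-5p (r = 0.957), miR-129-2-3p (0.951), miR-128a-5p (0.944), miR-338-3p (0.935) and miR-153-3p (0.929). miR-128a-5p was in both lists.

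The ends of the reads were counted from the annotated ends of each member. The listed sequences have 23 bases for miR-181a-5p and miR-181d-5p, 24 for miR-181b-5p and 22 for miR-181c-5p. miR-181a-5p began at its annotated first base in 99.6% to 99.9% of the exact reads, so that its seed hardly varied. At the 3′ end, 36.0% to 52.3% ended at the annotated base and 34.9% to 47.7% 1 base before it. miR-181b-5p ended 2 bases before the annotated end in 39.9% to 60.0% of reads and 1 base before it in 28.8% to 42.3%. It ended at the annotated base in 9.07% to 17.4%. Since its listed sequence is 1 base longer, its ends 2 bases and 1 base early have the lengths of the 2 most frequent ends of miR-181a-5p. At these lengths the ranges of miR-181a-5p and miR-181b-5p overlap. miR-181c-5p ended 1 base after the annotated end in 17.4% to 27.6% of reads and miR-181d-5p in up to 25.1%, against 1.15% to 2.47% for miR-181a-5p. Since the listed miR-181c-5p is 1 base shorter than miR-181a-5p, its reads with this end have the length of the listed miR-181a-5p. For miR-181c-5p these shares therefore do not compare reads of the same length. The share of miR-181a-5p at the annotated end differed by 6.35 percentage points within the same-tissue pairs and 5.43 between others (exact one-sided permutation test, adjusted p = 0.672). Reads that began early enough or ran on far enough to tell the 5′ arms of the miR-181a genes apart were very few. They were 442 for mml-mir-181a-1 and 13 for mml-mir-181a-2 in all profiles. The 3′ arms of these genes had the reverse order, with 30502 and 79662 reads. In the muscle profiles the gene-specific 5′ reads were 9 and 8 for mml-mir-181a-1 and 0 for mml-mir-181a-2. Why the orders differ was not tested. The miR-181b genes differ in the base after the annotated end of miR-181b-5p and in bases before its start. Of the reads that matched only 1 of them, 81 were of mml-mir-181b-1 and 4001 of mml-mir-181b-2, the reverse of the order of the 3′ arms. The base after the annotated end in mml-mir-181b-2 is U, so that reads that run on to it cannot be told apart from reads with a tail of U.

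Tails are bases at the 3′ end of a read that the hairpin does not have. Terminal nucleotidyltransferases can add such bases, for example A or U, but the reads alone do not show how a base arose. Tails were counted as 1 or 2 such bases after a match that ended within 3 bases of the annotated end. The share with a tail of A was 2.79% to 4.28% for miR-181a-5p, with a median of 3.64%, and 11.1% to 18.2% for miR-181b-5p, with a median of 15.7%. miR-181d-5p had 12.6% to 34.2%, and miR-181c-5p had 1.25% to 2.93%. The share was higher for miR-181b-5p and miR-181d-5p than for miR-181a-5p in 12 of 12 profiles, and lower for miR-181c-5p in 12 of 12. For miR-181b-5p this order depended on the window, a choice compared after seeing the data. Counted after matches that ended within 1 base of the annotated end, its share was 1.67% to 5.03%. This was lower than that of miR-181a-5p (3.18% to 4.79%) in 11 of 12 profiles. The window within 1 base leaves out the frequent end of miR-181b-5p 2 bases before the annotated end. The listed miR-181b-5p is 1 base longer than miR-181a-5p, so that an end of the same length is kept for miR-181a-5p. The lower share therefore does not compare like ends. miR-181d-5p had 7.98% to 21.3% in that window and stayed above miR-181a-5p in 12 of 12 profiles, and miR-181c-5p stayed below it in 12 of 12. In the wider window the median over the 164 to 206 other miRNAs with enough reads was 2.28% to 4.92%, and miR-181b-5p was above 81.4% to 90.8% of them.

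Counted tails of U were few on miR-181a-5p (0.431% to 1.08%), miR-181b-5p (0.183% to 0.502%) and miR-181c-5p (at most 0.222%). The median of the other miRNAs was 1.48% to 2.42%, but the shares cannot be set against it. Most reads of these 3 members end where the next base of the hairpin is U, so that an added U is not seen. Within 1 base of the annotated end, tails of U were 0% for miR-181a-5p and miR-181c-5p in all 12 profiles. miR-181d-5p had 0.182% to 5.53%, with the highest value in liver, where it rests on 14 of 253 reads, and 2.14% of 10829 reads in spinal cord. Most of its reads also end where the next base of the hairpin is U, so that its tails of U are understated too. Tails of U were frequent on miR-181c-3p, with 10.5% in occipital lobe, 11.2% in spinal cord and 16.1% to 32.6% in the other 10 profiles. miR-181a-1-3p had 4.01% to 8.90% and miR-181a-2-3p 2.19% to 6.35%, with occipital lobe lowest for both. In the hairpin of miR-181a-2-3p a U follows the annotated end, so that a single U added there is not seen. A C follows the annotated end of miR-181a-1-3p and miR-181c-3p. The lower share of miR-181a-2-3p therefore cannot be set against theirs. For miR-181c-3p the reads behind a value were 69 in kidney 2 and 8685 in occipital lobe. The share of miR-181a-2-3p with a tail of A was lowest in muscle with 3.20% and 4.32%, followed by spinal cord with 5.89% and occipital lobe with 7.69%, and highest in lung with 32.7%. The median A tail of the other miRNAs was also lowest in muscle 2 (2.28%) and spinal cord (2.66%) and highest in lung (4.92%). In large intestine 1 this median was low too (2.81%), where miR-181a-2-3p had 13.5%. Lung was also highest for the A tails of miR-181a-1-3p, miR-181b-5p and miR-181d-5p, but not for those of miR-181a-5p, miR-181c-5p and miR-181c-3p. Within 1 base of the annotated end the share of miR-181a-2-3p was 1.18% to 8.86%, again highest in lung. For miR-181a-1-3p the share in that window was 0% to 1.80%, and lung (1.72%) was not the highest but lay below muscle 1 (1.80%).

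None of the A and U tail shares of miR-181a-5p and miR-181b-5p passed the test of same-tissue pairs (exact one-sided permutation tests, adjusted p = 0.276 to 0.587) or that of neural tissue against the rest (exact two-sided permutation tests, adjusted p = 0.333 to 0.417). The A tail of miR-181b-5p was 16.5% in spinal cord and 17.0% in occipital lobe and 11.1% to 18.2% elsewhere. In the hairpins of miR-181a-5p and miR-181c-5p, a U follows the annotated end and the ends 1 base before and 1 base after it. For miR-181b-5p a U follows the ends 2 bases and 1 base early, and in mml-mir-181b-2 also the annotated end. For miR-181d-5p a U follows the annotated end and the end 1 base before it. A U after such an end was not counted, so that tails of U are understated.

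Tails of C, which were added to the counted tails after the data were seen, were the most frequent on miR-181a-5p, with 7.56% to 27.3%. They differed widely within tissues, with 8.51% and 20.8% in the kidney profiles and 27.3% and 7.56% in the large intestine profiles. The mean difference was 9.90 percentage points within the same-tissue pairs and 7.88 between others. The median C tail of the other miRNAs moved in the same way, from 4.35% in large intestine 2 to 12.9% in large intestine 1. Over the 12 profiles it had Pearson's r = 0.930 and Spearman's rho = 0.923 with that of miR-181a-5p, as a description, since both values come from the same library in each profile. A last base C in place of the base of the hairpin may be an addition or a substitution, which cannot be told apart in these reads. The cause was not tested.

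**Figure D5:**
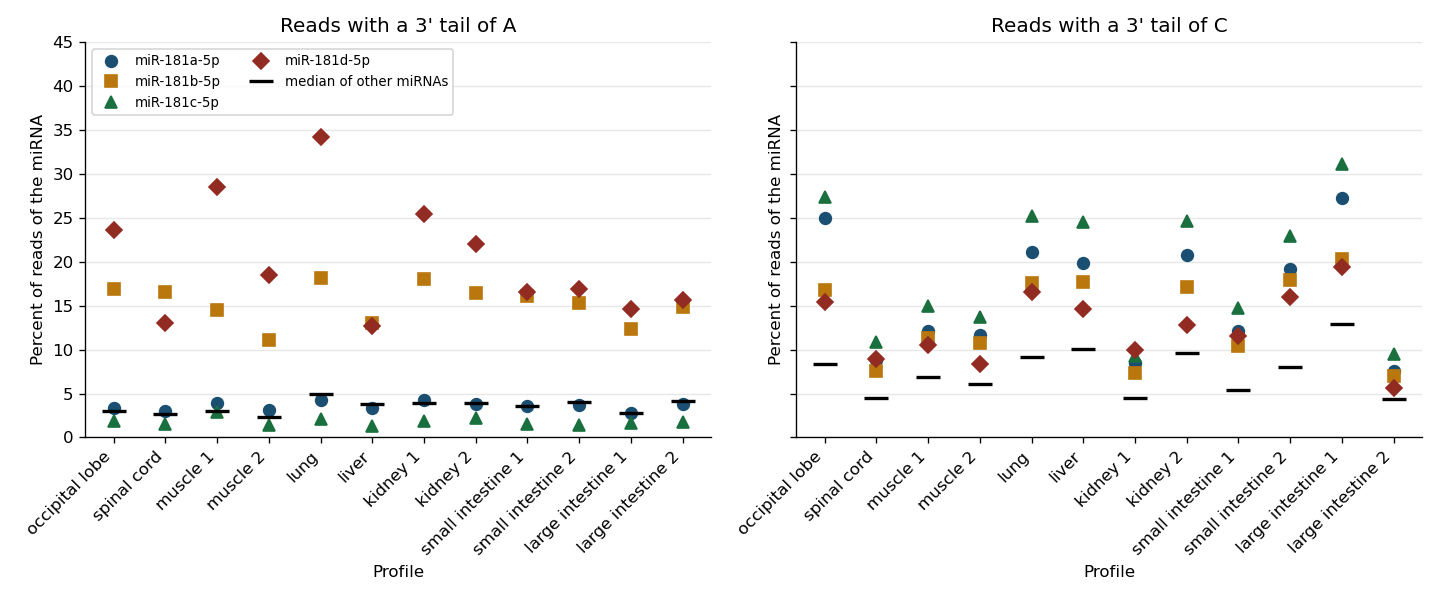
Percent of reads with a 3′ tail of A (left) and C (right) for the 4 miR-181 5′ arms, with the median of the other miRNAs as a bar; each point is 1 profile. A tails are above those of miR-181a-5p for miR-181b-5p (11.1% to 18.2%) and miR-181d-5p in all profiles. Within 1 base of the annotated end, a window that leaves out a frequent shorter end of miR-181b-5p, its A tails are 1.67% to 5.03%. C tails rise and fall for all 4 members with the median of the other miRNAs.

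Because the members are so alike, their counts were checked against sequencing errors. The read that differs from the most abundant read of miR-181b-5p by C12U, which is miR-181d-5p, had 3.58% of its reads, against a median of 0.0274% and a maximum of 0.369% (A2G) for other substitutions of miR-181b-5p. miR-181c-5p is what miR-181a-5p would read with base 11 left out. This sequence had 76954 reads, whereas no other single omission had more than 1990 reads. Summed over the 12 profiles, no substitution of the most abundant read of a 5′ arm that does not make another member exceeded 1%, and the highest was A2G of miR-181d-5p with 0.754%. In single profiles some did, up to 1.06% for miR-181c-5p (C11U) and, on few reads, 4.17% for miR-181d-5p (U13C). Of the exact reads on the 6 hairpins, 93.9% to 99.5% had both ends within 2 bases of a mature arm.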

How the data were processed

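Per the labels and the study's methods, total RNA was isolated with TRIzol, small RNA libraries were sequenced on an Illumina instrument, reads with high scores were kept, the 3′ adapter was removed and identical sequences of 18 bases or more were counted. The deposited values are these counts, 1 list per profile, without normalization. The hairpins and mature sequences were read from the study's supplementary list, and no value of it was used.

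Exact reads with both ends within 2 bases of a mature miRNA were counted, identical mature sequences once, in Python 3.11.15 (numpy 2.4.6, pandas 2.3.3, scipy 1.17.1). Ligation favours some sequences, so that ratios between miRNAs hold for these libraries. Tests across miRNAs used edgeR 4.0.16 (limma 3.58.1, R 4.3.3) in 7 groups, with TMM factors on the valid reads. DESeq2 1.42.0 was an alternative. The standard error was derived from the F statistic. Ratios had a pseudocount of 0.5 reads. On simulated counts of the muscle comparison, 73 of 74 miRNAs changed by a factor of 8 were called, with 4 false calls among 297. There each miRNA had 1 mean in all profiles and a fixed spread, and only muscle was changed. The other tissues did not differ, so that these rates hold for that setting and not for smaller differences. The members, lists and tests were chosen with earlier results of these data known. All members are named, with the 5 miRNAs most alike to miR-181a-5p and to miR-181c-5p and the most abundant miRNA beside a rank. The p-values measure the spread between profiles. Each other marker list had its highest sum in 1 profile: liver (miR-122, 7739 RPTM in liver, 4.37 RPTM or less elsewhere), oligodendrocyte 27365 RPTM in spinal cord, intestinal epithelium 2064300 RPTM and epithelium 11565 RPTM in small intestine 1, leukocyte 10575 RPTM and endothelium 9051 RPTM in lung, erythroid 822508 RPTM in muscle 2 and smooth muscle 3570600 RPTM in large intestine 2. The intestinal epithelium list does not set the intestines apart. It had 1214340 RPTM in liver, above both large intestine profiles (1002510 and 452958 RPTM).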

Additional observations from a re-analysis of the deposited data

How the results depend on the processing

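The calls in neural tissue and that of miR-181a-2-3p in muscle held under every alternative in which the member was tested, including each profile left out. With identical reads only, miR-181c-3p was not tested, and 6 of 6 members were called in neural tissue. In kidney 3 members were called, and 0 to 3 with 1 profile left out. In small intestine 3 were called, but 0 without a filter, and 1 with identical reads only, with tails counted, with a replicate block and in the 8 numbered profiles without a block (chosen after seeing the data). With 1 profile left out, 0 to 4 were called. In large intestine 0 were called, but 4 with valid reads in place of TMM factors, 3 with DESeq2 or with the neural tissues as 2 groups, 2 with the replicate block and in the 8 profiles without it (miR-181a-2-3p lower and miR-181d-5p higher, whereas the other alternatives called members lower), and 1 with a mean of at least 50 RPTM or with all exact reads on the arm's side of the hairpin. With 1 profile left out, 0 to 3 were called. Deviations of same-numbered profiles correlated by -0.138 to 0.153, so that no shared deviation was seen. This does not show whether a number marks an animal, and the replicate numbers were not used as pairs. The cause of these changes was not tested.

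The mean difference within same-tissue pairs was divided by that between other pairs. With identical reads only, this quotient was 0.370 for the miR-181a 3′ to 5′ arm ratio, 0.663 for miR-181b-5p to miR-181a-5p and 0.411 for miR-181d-5p to miR-181b-5p, and these lost their calls. With 1 profile left out, the first ranged from 0.257 to 0.353 and the second from 0.0787 to 0.342, with adjusted p-values of up to 0.128 and 0.0660. The ratios of the 3′ arms of the miR-181a genes and of miR-181c-5p to miR-181a-5p kept their calls, with adjusted p-values of up to 0.0249 without 1 profile. Neural tissue minus the other profiles changed sign, without being called, for miR-181d-5p to miR-181b-5p (-0.15, but 0.33 with identical reads, and -0.66 to 0.36 with 1 profile left out), for the A tail of miR-181b-5p within 1 base of the end (-0.88 percentage points), and with 1 profile left out for the U tail (-0.17 to 0.44) and the annotated end (-0.40 to 1.41) of miR-181a-5p. With 1 neural profile no p under 0.05 is possible. For the miR-181b 3′ arms the other counting rules were not run, since they leave almost no reads. U tails of miR-181a-5p within 1 base of the end were 0% in all 12 profiles, where a U is the base of the hairpin, and gave no comparison. With 12 libraries and 4 same-tissue pairs, liver and lung have no replicate, and members under about 1 RPTM could not be compared.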
